A study of Mus musculus with 3 samples.

Results

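The replication-dependent histone genes encode the core histones H2A, H2B, H3 and H4, around which DNA is wrapped in nucleosomes, and the linker histone H1, which binds the DNA between them. Members were the RefSeq protein-coding genes whose symbols begin with the mouse prefixes for these families, and 67 of 21887 protein-coding genes qualified: 10 H1, 17 H2A, 16 H2B, 12 H3 and 12 H4 genes. Some of the H1 genes among them (H1f0, H1f7, H1f8 and H1f10) are linker variants that lie outside the replication-dependent clusters. Open chromatin at these genes was compared across 3 ATAC-seq libraries, an assay whose transposase cuts accessible DNA and tags it for sequencing. Peaks from any library that shared 1 bp or more were joined into 1 region, and 61 of 57457 regions had a member as their nearest protein-coding gene within 100 kb. Of these, 49 overlapped a member and 12 lay at a distance.

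All cells came from C57BL/6J wild-type recipients of naive CD4+ T cells from CBir1 transgenic mice, whose T cell receptor recognises a flagellin of gut bacteria. The transferred cells had been stained with CellTrace Violet, a dye that each division dilutes. All 4 recipients drank 2% dextran sulfate sodium (DSS), which injures the colon lining, for 7 days and were given 1 mg/kg FTY720, which holds lymphocytes in lymph nodes, on days 7, 10 and 13. On day 14 the nodes draining the colon were sorted into 3 fractions: divided CBir1 cells, with diluted dye, undivided CBir1 cells, with bright dye, and polyclonal CD4+ cells of the recipients themselves. No library without DSS, FTY720 or transfer was analysed here. Fractions of 2 mice were pooled, in duplicate per the series' design text, but a single peak list stood for each fraction here. With 1 library in a group, differences have no replicate check and no p-value, and every interval below covers counting error only.

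In most cells histone messenger RNA is made in S phase, when new DNA has to be packed, and the genes lie in a few clusters that share a nuclear body with the activator NPAT. Their messages end in a stem loop instead of a poly(A) tail, and many H2A and H2B genes stand head to head, transcribed away from each other from 1 shared promoter. In T cells, as in other dividing cells, many gene copies feed 1 protein pool. Here 53 members lay in 3 clusters on chromosome 13 (17, 5 and 31 genes), 10 in 1 cluster on chromosome 3, and 4 H1 genes stood alone on chromosomes 15 and 6.

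Signal is given as the pileup, the number of overlapping sequenced fragments or extended reads at the strongest summit of a region, recovered from the deposited fold and p-values. The divided library was the deepest: its lowest background was 1.5 times that of the undivided and 1.40 times that of the polyclonal library, whereas its pileups in regions called in all 3 libraries were a median of 1.21 and 1.19 times theirs. More cells with an open region and more opening in each cell cannot be told apart in these pooled cells. Pileups are not scaled for depth. Ratios are, by the median over regions called in all 3 libraries, unless another scaling is named. As a check of the cell label, 14 of 14 T cell marker genes, Cd4 among them, had a region at the gene in each library. For B cell markers this was 7, 3 and 6 of 10 in the divided, undivided and polyclonal library, with no region at Ms4a1 or Cd79b, and for myeloid markers 3 of 10 in each. Whether the B cell marker regions bear on any difference below was not tested.

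Histone genes were open in all 3 fractions. Of the 67 members, 62 had a region within 1 kb in the divided, the undivided and the polyclonal library alike. Over all protein-coding genes the shares were 64.8%, 62.6% and 63.6% in the same order. All 12 H3 and all 12 H4 genes had one, as did 16 of 17 H2A, 15 of 16 H2B and 7 of 10 H1 genes. The 5 members with none in any library were H2ac1 and H2bc1, a testis H2A and H2B pair, H1f7 and H1f8, germ cell linker histones, and H1f10, a widely expressed linker variant. Their nearest regions were 170357, 169645, 74206, 22318 and 16443 bp away. H1f6, the testis linker histone, is counted among the 62, but no region overlapped it: the region 986 bp away overlapped its neighbour H4c3. H2ac10 differed between fractions. A region overlapped it in the divided library alone, and in the undivided and polyclonal library it is counted only through a region within 1 kb.

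Of the 61 regions, 60 were called for divided, 57 for undivided and 57 for polyclonal cells. In all 3 libraries 56 were called, or 91.8% (Wilson 95% interval 82.2% to 96.4%), against 56.9% of all regions and 82.6% of the 13157 regions near a gene end. In the divided but not the undivided library there were 4 regions (21.4% of all regions were of this kind), and 1 the other way (10.3%). Against the polyclonal library the divided library had 3 (18.3%) and 0 (11.5%), and the undivided library 1 (10.3%) with 1 the other way (14.6%). The 5 regions behind these counts were mostly weak. At H2ac10, an H2A gene, the divided library had a peak of pileup 45 over a local background of 19.3, a deposited fold of 2.27 and −log10 q of 4.62, and the other libraries had none at the gene itself. The rest were a divided region of pileup 15 inside the H2bc22 span, 1 of pileup 9 at 7572 bp from H4c17, an undivided region of pileup 9 inside the H2bc6 span, and 1 of pileup 29 in divided and 21 in polyclonal cells at 6149 bp from H4c8.

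The regions over histone genes stood out in signal and not in fold. Among the 49 that overlapped a member, the median pileup was 114.5 for divided, 92 for undivided and 101 for polyclonal cells. Over all regions it was 31, 30 and 28, and over regions near a gene end 82, 68 and 71. The local background around them was higher as well: 14.35, 10.26 and 11.21 against 3.13, 2.43 and 2.40 over all regions. The authors' fold enrichment, which divides one by the other, had a median of 7.25, 8.01 and 8.02 at histone genes, close to 7.32, 8.58 and 8.01 over all regions and under the 10.34, 11.56 and 11.22 near gene ends. By pileup the median histone region stood at percentile 86.9, 84.0 and 86.8 of all regions, and by fold at percentile 49.6, 45.8 and 50.1. The chart of pileup, background and fold by set of regions shows the 3 quantities side by side.

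**Figure D1:**
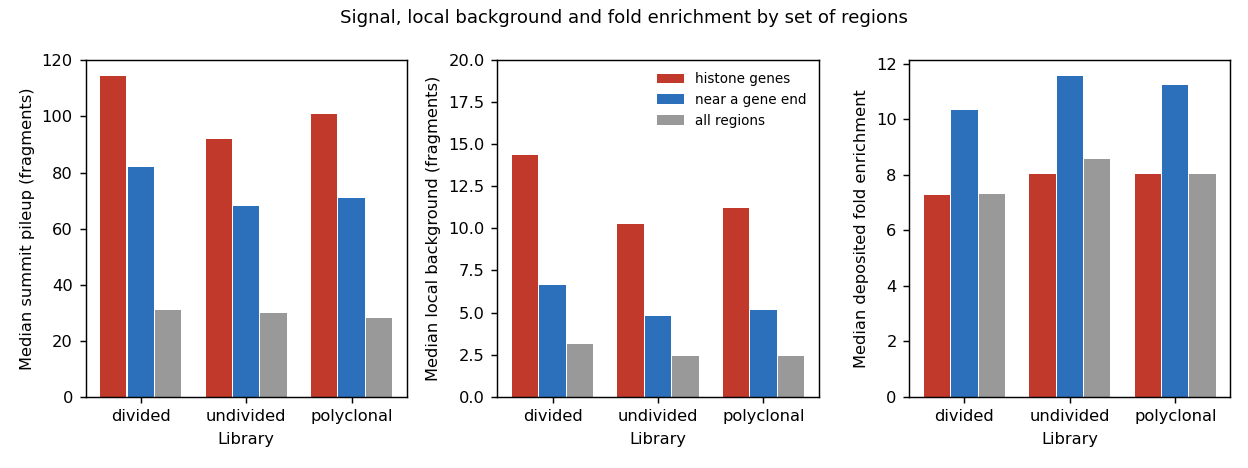
Median summit pileup, median local background (both in fragments) and median deposited fold enrichment (a ratio) in each library for regions overlapping a histone gene (red), regions near any gene end (blue) and all regions (grey). Histone regions have the highest pileup and background in each library, while their fold, 7.25 to 8.02, lies under that of regions near a gene end.

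By the median, the histone regions moved little between fractions. The scaled log2 pileup ratio had a median of −0.05 for divided over undivided (56 regions), −0.07 for divided over polyclonal (57) and −0.03 for undivided over polyclonal (56), and its sign depended on the scaling: by the deposited fold the first was 0.042, and by the lowest background the last was 0.049. At least 1.5-fold higher in divided than in undivided cells were 0 regions (11.9% of all regions called in both), and 1 was that much lower (10.5%): a weak region 8089 bp from H4c17, with pileups of 11 and 15. Regions near a gene end, with pileups closer to those of histone genes, passed this fold less often than all regions. Of 11125 called in both, 744 were that much higher and 362 lower. Divided over polyclonal gave 1 up (11.7%) and 1 down (8.07%), and undivided over polyclonal 1 up (7.13%) and 3 down (7.24%). Near a gene end these were 564 up and 351 down of 11302, and 276 up and 499 down of 11055. The 1 down in divided over polyclonal lay at a distance from members. Down in undivided over polyclonal were H4c18, at 0.666 (95% interval 0.491 to 0.899), and 2 regions at a distance. A region nearest to H2bc11 had an interval wholly below 1 in both comparisons. Intervals that excluded 1 were 1 of 57 for divided over polyclonal and 2 of 56 for undivided over polyclonal. A few can do so by counting error alone, and their share over all regions is not given here. The 1 region up in undivided over polyclonal cells was the same weak region near H4c17, with pileups of 15 and 9. The 1 up in divided over polyclonal cells lay over H3c2, an H3 gene, with pileups of 68 for divided, 54 for undivided and 38 for polyclonal cells, a scaled ratio of 1.5 (95% interval 0.997 to 2.3) for divided over polyclonal. These 3 comparisons share libraries in pairs and are not independent of each other.

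The H4 genes, which encode the histone that pairs with H3, were covered by 11 regions of their own. Raw pileups in the divided, undivided and polyclonal library were 173, 137 and 150 at H4c14, 134, 89 and 101 at H4c3, and 127, 109 and 112 at H4c8. H4c18 had 130, 75 and 114, H4c17 112, 97 and 88, H4c12 97, 62 and 80, and H4c11 95, 70 and 84. The others were H4c2 with 99, 79 and 91, H4c9 with 84, 61 and 63, H4c4 with 78, 62 and 80, and H4c6 with 71, 51 and 56. Before scaling, the divided library was the highest at 10 of the 11, H4c4 being the exception, and the undivided library the lowest at 10, H4c17 being the exception. Over all 46 regions that overlapped a member and were called in each library, the divided library was the highest at 40 and the undivided the lowest at 32. Scaled, divided over undivided had a median log2 ratio of 0.17 and a range of −0.06 to 0.52. The median was 0.005 over all regions and 0.03 near gene ends. Above 0 were 9 of 11 H4 regions, beside 50.4% of all regions and 54.1% near gene ends. Scaled by the lowest background, however, the H4 median was −0.14, beside −0.31 over all regions. Summed over the 11 regions the pileups were 1200, 892 and 1019, a scaled ratio of 1.12 (95% interval 1.02 to 1.22) for divided over undivided and 0.886 (0.809 to 0.970) for undivided over polyclonal. Both intervals hold only for the scaling by regions called in all 3 libraries. The unscaled sum ratio for divided over undivided was 1.35 (1.23 to 1.47), wholly below the ratio of their lowest backgrounds. Scaled by the lowest background it would lie below 1, so its side of 1 depends on the scaling. For divided over polyclonal the sum ratio was 0.990 (0.910 to 1.08). For undivided over polyclonal 1 of 11 H4 regions was above 0, beside 41.3% near gene ends and 50.5% of all regions. The H4 median was −0.17 on the log2 scale, beside −0.06 near gene ends and 0.02 over all regions. It was −0.083 by the lowest background, −0.11 by gene-end regions and −0.037 by the deposited fold.

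Some H4 values could not be assigned to 1 gene with certainty. The RefSeq promoters of H4c17 and H4c18 were 99.7% identical over 299 aligned bases and those of H4c11 and H4c12 96.1% over 284, and the treatment of reads that fit several places was not given in the sources used here. H4c18 was the 1 histone region of 56 whose interval for divided over undivided lay wholly on 1 side of 1, at 1.44 (1.07 to 1.94), whereas its copy H4c17 was at 0.958 (0.723 to 1.27). Taken as pairs, H4c17 with H4c18 summed to 242, 172 and 202, a ratio of 1.17 (0.956 to 1.43), and H4c11 with H4c12 to 192, 132 and 164, a ratio of 1.21 (0.961 to 1.52). Without these 4 genes the H4 median for divided over undivided was 0.07. Only promoter windows were compared, whereas most H4 summits lay inside the gene, where sequences were not compared. Whether reads were shared among the remaining H4 genes was therefore not tested. The sum over all H4 regions, with its scaled interval above 1, was not taken without them. Other near-identical promoters were those of H2ac23 and H2ac24, H2ac18 and H2ac19, and H3c14 and H3c15, 5 pairs among 1952 compared at 90% identity over at least 200 bases.

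Stretches before 3 H4 starts are shown because H4 promoters held the CCAAT box at 3 of 11, the fewest among the classes. The 250 bases before each start are printed 5′ to 3′ on the gene's strand, from RefSeq promoters of GRCm38.p6 (mm10), with motif matches on either strand in capitals. H4c3 (chr13:23698459-23698708, minus strand) is shown as an H4 promoter with CCAAT boxes, and H4c12 (chr13:21750554-21750803, minus) and H4c18 (chr13:21832198-21832447, minus) as members of the near-identical pairs, each with 1 TATA-type match. This match began 16 bases before the start at H4c12 and 127 bases before it at H4c18.
H4c3: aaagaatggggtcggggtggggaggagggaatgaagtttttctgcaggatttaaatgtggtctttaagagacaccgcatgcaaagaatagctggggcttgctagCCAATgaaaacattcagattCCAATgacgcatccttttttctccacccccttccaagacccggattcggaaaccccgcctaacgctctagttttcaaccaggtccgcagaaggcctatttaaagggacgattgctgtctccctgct
H4c12: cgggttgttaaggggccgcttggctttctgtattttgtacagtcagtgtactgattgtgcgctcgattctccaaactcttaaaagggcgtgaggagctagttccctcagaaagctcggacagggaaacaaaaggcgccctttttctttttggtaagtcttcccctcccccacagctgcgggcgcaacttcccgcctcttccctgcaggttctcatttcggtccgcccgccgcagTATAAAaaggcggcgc
H4c18: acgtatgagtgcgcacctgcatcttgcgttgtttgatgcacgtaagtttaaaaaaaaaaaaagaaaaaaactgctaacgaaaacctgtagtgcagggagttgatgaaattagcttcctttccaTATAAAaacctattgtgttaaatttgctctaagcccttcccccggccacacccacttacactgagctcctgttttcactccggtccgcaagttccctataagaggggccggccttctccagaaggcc

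Head-to-head H2A and H2B genes mostly lay under shared regions. The promoter table held 9 divergent H2A and H2B pairs with starts up to 281 bp apart, and in 8 of them, with gaps of 164 to 249 bp, a single peak spanned both starts in each library. The remaining pair was H2bc1 with H2ac1, the testis genes, which had no peak. The 10 regions that overlapped both an H2A and an H2B gene had a median scaled log2 ratio of −0.10 for divided over undivided. It was −0.18 for divided over polyclonal. For divided over undivided 1 of 10 was above 0, beside 50.4% of all regions and 54.1% near a gene end. For divided over polyclonal 2 of 10 were above 0, beside 51.9% and 47.2%. The summed pileups of the 10 regions were 1311 for divided, 1182 for undivided and 1246 for polyclonal cells. Scaled ratios were 0.920 (0.850 to 0.996) for divided over undivided and 0.884 (0.818 to 0.957) for divided over polyclonal. Undivided over polyclonal was 0.960 (0.886 to 1.04). The difference between this class and the H4 class has no replicate test.

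Within the pairs, the region of H2ac23 and H2bc23 had the highest pileups, at 186, 187 and 186 in the divided, undivided and polyclonal library. The promoter of H2ac24 matches that of H2ac23 over 200 bases at 100% identity. The H2ac24 region, which also overlapped H4bc24, a histone gene outside the member prefixes, was alike at 194, 195 and 186. In both, the deeper divided library had no more fragments than the undivided one, and the scaled ratio was 0.825 for each, with intervals of 0.670 to 1.02 and 0.673 to 1.01. The region of H2bc12 and H2ac12 was lowest of the 10 in divided cells, with 95, 88 and 90. H2bc4 with H2ac6 had 144, 140 and 143, and H2bc21 with H2ac21 and H2ac20, in the chromosome 3 cluster, had 136, 121 and 142. The 1 pair above 0 for divided over undivided was H2bc7 with H2ac7, at 111, 78 and 100.

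These stretches show this arrangement. The bases between both starts are printed for H2ac12 and H2bc12 (chr13:22035644-22035820, plus strand), which hold 3 CCAAT boxes and 1 octamer, and for the strongest pair, H2bc23 and H2ac23 (chr13:21810200-21810366, plus), which hold 2 CCAAT boxes. The 250 bases before the start of H2bc1 (chr13:23934157-23934406, minus) hold 4 CCAAT boxes, 1 octamer, 1 TATA-type match and 1 H1 box, although no peak lay there in any fraction.
H2ac12 to H2bc12: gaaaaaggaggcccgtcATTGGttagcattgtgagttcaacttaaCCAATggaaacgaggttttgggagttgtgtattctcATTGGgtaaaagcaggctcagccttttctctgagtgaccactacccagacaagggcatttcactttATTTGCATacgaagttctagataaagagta
H2bc23 to H2ac23: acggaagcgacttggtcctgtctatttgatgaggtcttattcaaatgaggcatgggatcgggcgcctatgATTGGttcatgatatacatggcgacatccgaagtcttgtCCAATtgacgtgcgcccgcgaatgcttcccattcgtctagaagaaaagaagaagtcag
H2bc1: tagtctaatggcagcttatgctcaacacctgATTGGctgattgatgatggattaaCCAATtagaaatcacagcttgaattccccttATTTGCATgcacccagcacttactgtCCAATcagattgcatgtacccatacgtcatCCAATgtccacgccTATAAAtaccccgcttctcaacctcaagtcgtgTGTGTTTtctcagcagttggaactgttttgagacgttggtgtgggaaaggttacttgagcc

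H2A and H2B genes outside such pairs ranged more widely. The H2ac18 and H3c14 region on chromosome 3 had the highest pileup of all histone regions in the divided library, with 209, 177 and 165, and H2ac19 with H3c15 had 190, 153 and 164. H2ac4 was among the weakest that were called in each library, at 43, 30 and 38. H2bc6, whose annotated span holds several regions and 2 starts, had 98, 77 and 68 at 1 start, and shared a region of 171, 158 and 166 with H1f4. H2bc3 with H3c3 had 98, 87 and 84. H2ac10 is shown because its peak was called in divided cells alone: its promoter (chr13:23533625-23533874, plus) holds 2 CCAAT boxes and 1 E2F-type match.
H2ac10: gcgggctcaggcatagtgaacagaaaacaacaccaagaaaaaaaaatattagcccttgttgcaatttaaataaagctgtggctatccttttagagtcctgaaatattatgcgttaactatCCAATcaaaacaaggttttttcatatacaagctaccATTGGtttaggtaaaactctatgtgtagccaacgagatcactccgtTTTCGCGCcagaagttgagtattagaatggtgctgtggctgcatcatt

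The 7 regions over H3 genes alone had a median log2 ratio of 0.00 for divided over undivided and over polyclonal. H3c6 was the strongest of them, with 154, 143 and 152, and had the highest deposited fold of all histone regions in the divided library, 16.40. H3c2 with 68, 54 and 38 and H3c4 with 76, 66 and 80 were the weakest. The region shared by H3c1 and H4c1 had 121, 116 and 120, a scaled log2 ratio of −0.21 for divided over undivided. The H3c6 promoter (chr13:23562386-23562635, minus) is printed for its 4 CCAAT boxes.
H3c6: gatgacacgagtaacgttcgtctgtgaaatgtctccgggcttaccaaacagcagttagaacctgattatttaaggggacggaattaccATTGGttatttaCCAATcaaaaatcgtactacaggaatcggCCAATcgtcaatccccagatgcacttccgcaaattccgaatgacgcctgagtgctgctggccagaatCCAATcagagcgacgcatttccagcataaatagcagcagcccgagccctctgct

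Among regions over H1 genes alone, H1f2, a main H1 subtype of somatic cells, was strongest at 205, 184 and 181. H1f5 had 137, 102 and 122, H1f1 86, 75 and 65, and H1f3 69, 59 and 59. H1f0, the replication-independent H1 of resting and differentiated cells, had 2 regions, 1 near its start with 59, 38 and 43 and 1 shared with the neighbouring gene Gcat with 74, 58 and 48. The first of these had a scaled ratio of 1.29 (0.842 to 1.99) for divided over undivided, an interval that includes 1. Summed, the 6 regions over H1 genes alone had 630, 516 and 518, scaled ratios of 1.01 (0.900 to 1.14) and 1.02 (0.909 to 1.15) for divided over undivided and over polyclonal. H1f2 (chr13:23738557-23738806, plus) and the testis gene H1f6 (chr13:23695561-23695810, plus) are set side by side, each with 1 H1 box and 1 CCAAT box. The H1 box began 112 and 114 bases before the start, and the CCAAT box 54 and 65. H1f2 had a peak over its start in every library, with the summit past the end of the gene, and H1f6 had none over it.
H1f2: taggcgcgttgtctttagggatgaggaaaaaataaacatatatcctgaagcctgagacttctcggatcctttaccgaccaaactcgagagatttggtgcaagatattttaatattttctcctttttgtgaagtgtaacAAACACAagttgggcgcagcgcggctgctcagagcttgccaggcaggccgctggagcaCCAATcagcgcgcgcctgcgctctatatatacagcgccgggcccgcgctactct
H1f6: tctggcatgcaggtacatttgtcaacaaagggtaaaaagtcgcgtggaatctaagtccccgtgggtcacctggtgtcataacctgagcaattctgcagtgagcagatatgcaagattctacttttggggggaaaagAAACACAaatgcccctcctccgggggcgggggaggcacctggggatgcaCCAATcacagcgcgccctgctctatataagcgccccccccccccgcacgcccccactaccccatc

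The plot of pileups by region sets all values at histone genes side by side, and the plot of scaled ratios shows them by class. The H4 ratios for divided over undivided overlapped those of regions over H1, H2A, H2B or H3 genes alone and of the H2A and H2B pairs, whereas the 1 region of H1f4 with H2bc6, at −0.16, and the 1 of H3c1 with H4c1, at −0.21, lay below them.

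**Figure D2:**
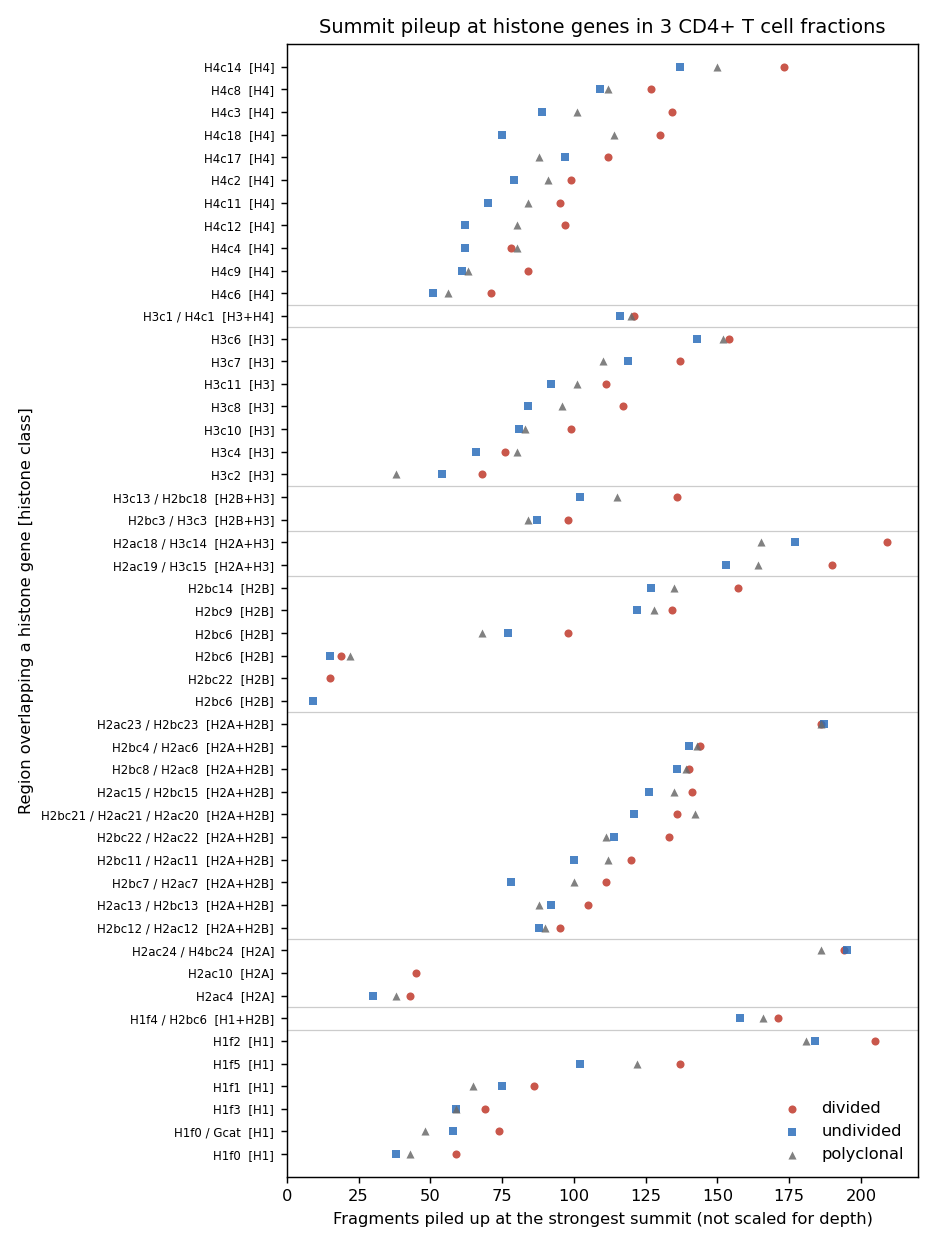
Summit pileup (fragments, not scaled for depth) of each region overlapping a histone gene, labelled by its genes and class, in divided (red circles), undivided (blue squares) and polyclonal (grey triangles) cells. The divided library, the deepest, is highest at 40 of the 46 regions called in each library, among them 10 of 11 H4 regions and 8 of 10 over both an H2A and an H2B gene.

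**Figure D3:**
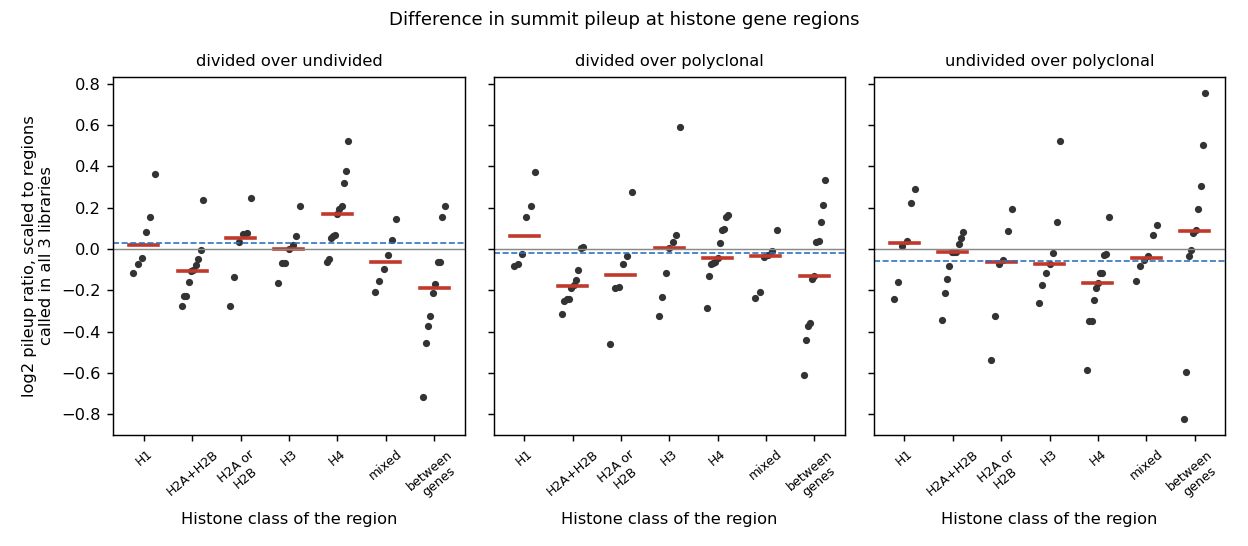
Scaled log2 pileup ratio for each pair of libraries, with 1 point per region, red bars at the class median and a dashed blue line at the median of regions near a gene end. The H4 median is 0.17 for divided over undivided (−0.14 when scaled by the lowest background) and −0.17 for undivided over polyclonal, and the H2A+H2B median is −0.10 and −0.02.

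Where in the gene the summit lay differed between classes. At the 11 H4 starts of the promoter table the nearest summit was inside the gene at 9 (divided), 8 (undivided) and 9 (polyclonal). Medians were taken over starts with a summit within 1 kb, which were 10, 11 and 11 of the H4 starts. The H4 median was 234.5, 223 and 203 bp after the start. At H4c12 the nearest summit was 226, 217 and 262 bp after the start, at H4c6 239 bp in each library, and at H4c3 223, 223 and 96 bp. At H2A starts (13, 15 and 14 of 17) the median was 76, 75 and 78 bp before the start. At H2B starts (14 of 15 in each library) it was 110, 104.5 and 67.5 bp before it, with 12, 14 and 14 of 15 H2B summits upstream. H3 genes were mixed, with 4, 3 and 4 of 10 upstream. At H1f2 the nearest summit was 986, 986 and 985 bp after the start, past the end of the gene, and at H1f5 1089, 1125 and 1085 bp after it. Over all promoters with a summit within 1 kb the median was 23, 25 and 27 bp before the start. The start itself lay inside a peak at 56, 53 and 55 of 63 histone promoters, against 37.3%, 36.0% and 36.3% of all 32851. The plot of summit positions shows each start. A shift of reads for the transposase offset, which would move a summit slightly, was not given in the sources used here.

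**Figure D4:**
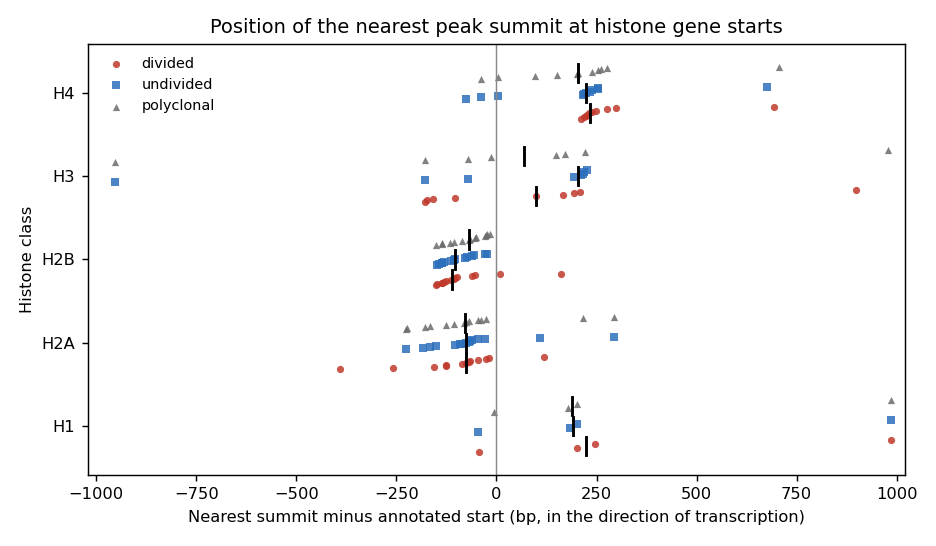
Distance in bp from the annotated start to the nearest summit, in the direction of transcription, for histone starts with a summit within 1 kb, by class and library, with black bars at the median. H4 medians lie 203 to 234.5 bp after the start and H2A and H2B medians before it.

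The classes also differed in promoter motifs, searched on both strands in the 300 bases from 250 before to 50 after the start. The table held 63 promoters of 62 members. The CCAAT box was matched as CCAAT. It was found at 17 of 17 H2A, 15 of 15 H2B and 10 of 10 H3 promoters, 7 of 10 H1 and 3 of 11 H4 promoters, against 37.4% of all 32851 promoters. The TATA-type word was TATAAA. It was found at 8 of 11 H4, 11 of 17 H2A, 7 of 15 H2B, 4 of 10 H3 and 4 of 10 H1 promoters, against 13.6% of all. These counts take any position in the window. In H4 its first base ran from 250 bases before the start to 42 after it, with a median of 79.5 before. On the gene's strand in H1 it lay 33 to 26 bases before the start. At 4 H2B promoters it was on the other strand, 212 to 190 bases before the start. The octamer known from H2B promoters was searched as ATTTGCAT. It was found at 7 of 15 H2B and 6 of 17 H2A promoters and at none of the H1, H3 and H4 promoters, against 1.74% of all. The H1 box was searched as AAACACA. It was found at 5 of 10 H1 promoters, with its first base 122 to 112 bases before the start, at 2 of 17 H2A and 2 of 15 H2B promoters and at none of the H3 and H4 promoters, against 7.18% of all. One E2F-type word was TTTCGCGC. It was found at 5 H2A and 4 H2B promoters and in 0.323% of all. The other was TTTGGCGC. It was found at no member and in 0.514% of all. No word contains another, divergent pairs share their matches, and a match is a match of letters, not a bound site.

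Genes that drive histone expression and assembly were open throughout. On a list of 32 such genes, 32 had a region at the gene in each library, beside 64.8%, 62.6% and 63.6% of all protein-coding genes in the divided, undivided and polyclonal library. The strongest region of each had a median scaled log2 ratio of 0.10 for divided over undivided. The median was −0.08 for divided over polyclonal and −0.13 for undivided over polyclonal. Near a gene end the 3 medians were 0.03, −0.02 and −0.06. For divided over undivided 19 of 32 were above 0, beside 50.4% of all regions and 54.1% near a gene end. Past 1.5-fold there was 1, Cdk2, the S phase kinase that acts with cyclin E, up in divided over undivided cells with 84, 46 and 59. Its scaled log2 ratio of 0.599 lay close to the cutoff. This count stands beside 11.9% of all regions and 744 of 11125 near a gene end. Other scalings of these ratios are not given here. Npat, the activator of the clusters, had 244, 222 and 217, and its partner Casp8ap2 had 191, 203 and 196. Slbp, which binds the stem loop, had 130, 97 and 117, Hinfp, an activator of H4 genes, 203, 178 and 167, and Ccne2, a cyclin E, 193, 138 and 176. Of 10 replacement variant genes, which are also made outside S phase, 8 had a region at the gene in each library (against the same shares of all genes). Their median was 0.00 for divided over undivided, and Macroh2a2 and H3f3c had no region. H3f3b, an H3.3 gene, had 183, 178 and 172, H2az1 216, 174 and 172, and Cenpa, the H3 variant of centromeres, 203, 149 and 155.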

How the data were processed

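ATAC-seq libraries of 3 sorted CD4+ T cell fractions were analysed, 1 library per fraction, grouped by the fraction in GEO's labels. MACS2 2.1.0 and the build mm10 stand in the submitters' processing notes, as do Bowtie2 2.3.2, SAMtools, Picard, Trimmomatic 0.33, cutadapt 1.12 and bcl2fastq 2.17. The merging of duplicate pools and the treatment of reads with several matches were not given in the sources used here, and neither were read totals. For each peak the authors deposited a score (the −log10 q-value times 10, truncated), a linear fold enrichment over local background (a ratio), and −log10 p and −log10 q values. The deposited summit positions were used as given.

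Pileup and local background were solved from the deposited fold, read as (pileup + 1) over (background + 1), together with the Poisson −log10 p-value, and came out whole within 0.001 at 99.96%, 99.97% and 99.98% of divided, undivided and polyclonal peaks. The method was checked on simulated data. The lists held 47963, 41876 and 44426 peaks, and the lowest background, used as a depth measure, was 1.21, 0.808 and 0.865. A region at a gene overlaps its span widened by 1 kb. Genes, promoters and their sequences came from RefSeq for GRCm38.p6, matched by symbol. The promoter table held 62 of 67 members. The histone genes H4f16, H2bu2, H2aw and H4bc24 have other symbols and entered only an alternative.

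With 1 library per fraction no test between groups was run. Shares have Wilson 95% intervals, pileups and their ratios exact ones, which cover counting error only, since reads without molecular identifiers are not independent molecules. Members and lists were chosen with earlier results of these data known. Genes were named by a rule: those outside clusters of 5 or more, the 3 strongest and 2 weakest of each class, the 3 highest and 3 lowest ratios of each pair of libraries, and those without a region in every library. H4c2, H4c11, H4c17, H2ac1, H2bc1, H2ac6, H2ac7, H2bc7, H2ac12, H2bc21, H2bc22, H2ac19, H3c1, H3c3, the named pathway genes and the printed promoters were chosen after their values were seen. Python 3.11.15, NumPy 2.4.6, pandas 2.3.3, SciPy 1.17.1, Biopython 1.88 and matplotlib 3.10.9 were used. Alternatives covered the peak threshold, overlap, assignment, symbols and scaling.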

Additional observations from a re-analysis of the deposited data

How the results depend on the processing

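No paired analysis was possible because each fraction had 1 library. Counts of regions called in 60, 57 and 57 of 61 cases and of genes with a region (62 in each library) stayed within 1.5 times under each alternative run. Counts of regions called in 1 library of a pair moved. At −log10 q of at least 5 they were 2 for divided without undivided, 0 for undivided without divided, 1 for divided without polyclonal and 0 for undivided without polyclonal. At a minimum of 10 they were 2 for divided without undivided, 1 for divided without polyclonal, 1 for polyclonal without divided and 2 for polyclonal without undivided. With an overlap of at least 50% of the narrower peak, undivided without divided and undivided without polyclonal were 2 each. With regions assigned by member spans widened by 1 kb, divided without undivided was 2 and polyclonal without undivided 0. With members matched by synonym too, an alternative chosen after seeing the data, undivided without divided was 2, polyclonal without divided 1, undivided without polyclonal 2 and polyclonal without undivided 2. The median log2 ratio for divided over undivided was −0.36 when scaled by the lowest background, −0.073 by gene-end regions and 0.042 by the deposited fold. For divided over polyclonal it was −0.30 by the lowest background. For undivided over polyclonal it was 0.049 by the lowest background and 0.023 by gene-end regions. In H4 regions, where all alternatives were chosen after seeing the data, it was −0.14 for divided over undivided by the lowest background, and for divided over polyclonal −0.28 by the lowest background and 0.076 by the deposited fold. Scaled by the lowest background, the median of all regions was itself −0.31, −0.22 and 0.10 in the 3 comparisons. The cause of the other changes was not tested. At H3c10, with pileups of 99 and 81, the counting interval of divided over undivided ran from 0.748 to 1.38, and differences within it were not detectable at this depth.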
